A study of Mus musculus with 69 samples.

Results

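The genes described here are 30 genes of cholesterol and fatty acid synthesis, of 18194 genes measured. They comprise 17 enzymes of the sterol pathway, 4 regulators of the pathway and 9 enzymes that make, elongate or desaturate fatty acids. They were chosen by name, and each was read from 1 probe set, the single-gene one that was brightest on average over all cells. The study amplified RNA of individual cells from the dorsal forebrain of CD1 mouse embryos, taken at embryonic day 14, and used 1 Affymetrix array per cell. The deposit gives 102 cells as amplified and 70 as put on arrays, and 69 arrays were analysed here. Source labels placed 3 cells in the cortical plate (CP), a layer of young neurons, and 66 in the ventricular zone and subventricular zone (VZ/SVZ), where progenitors divide. For the CP cells another label, the description, reads VZ/SVZ, and the source label was used. The cells were picked by hand after trypsin digestion, and bacterial spike RNAs were added to every cell. The labels name no treatment and no mutant allele in either group. Cell titles also carry a letter whose meaning the labels do not give: 7 cells are A, 14 are B, 7 are C, 7 are D and 31 are X, and the 3 CP cells are E.

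Cholesterol is built from acetyl-CoA through mevalonate, isoprenoids, squalene and lanosterol, and fatty acids are built from the same acetyl-CoA through malonyl-CoA. The transcription factors SREBP1 and SREBP2 drive the genes of both branches when sterols are scarce, and the Insig proteins hold them in the endoplasmic reticulum when sterols are plentiful. The brain makes its own cholesterol, since plasma lipoproteins do not cross the blood-brain barrier, and growing and dividing cells need sterols and fatty acids for new membrane.

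The proximal promoters of sterol genes are known for sites of SREBP and its partner NF-Y, so the promoters of 4 sterol members with large differences between cells are shown. They are RefSeq promoters in the build GRCm38.p6, from 250 bases before to 50 bases after the annotated start, written 5′ to 3′ on the strand of the gene. Capitals mark matches to the NF-Y motif CCAAT on either strand and to the sterol regulatory element TCACNCCAC on either strand. The windows are chr13:119690101-119690400 on the plus strand for Hmgcs1, chr13:8885356-8885655 on the plus strand for Idi1, chr5:4104648-4104947 on the minus strand for Cyp51 and chr8:64733529-64733828 on the minus strand for Msmo1.
Hmgcs1: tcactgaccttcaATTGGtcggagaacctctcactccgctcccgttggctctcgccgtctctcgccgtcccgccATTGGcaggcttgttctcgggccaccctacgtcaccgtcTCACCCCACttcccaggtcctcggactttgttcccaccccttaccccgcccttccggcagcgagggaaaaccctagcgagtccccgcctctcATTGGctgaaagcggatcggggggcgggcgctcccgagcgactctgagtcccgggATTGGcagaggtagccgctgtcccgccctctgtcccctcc
Idi1: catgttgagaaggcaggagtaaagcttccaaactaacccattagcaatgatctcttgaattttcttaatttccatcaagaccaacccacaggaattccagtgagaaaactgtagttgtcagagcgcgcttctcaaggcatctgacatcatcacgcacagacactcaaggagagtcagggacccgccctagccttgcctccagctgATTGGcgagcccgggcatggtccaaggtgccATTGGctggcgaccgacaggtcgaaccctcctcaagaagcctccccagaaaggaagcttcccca
Cyp51: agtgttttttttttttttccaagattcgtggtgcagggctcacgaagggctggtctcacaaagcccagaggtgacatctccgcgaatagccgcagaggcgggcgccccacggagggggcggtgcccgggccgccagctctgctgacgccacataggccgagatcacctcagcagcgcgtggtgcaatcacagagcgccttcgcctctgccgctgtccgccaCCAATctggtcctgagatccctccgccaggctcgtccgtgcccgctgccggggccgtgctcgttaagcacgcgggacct
Msmo1: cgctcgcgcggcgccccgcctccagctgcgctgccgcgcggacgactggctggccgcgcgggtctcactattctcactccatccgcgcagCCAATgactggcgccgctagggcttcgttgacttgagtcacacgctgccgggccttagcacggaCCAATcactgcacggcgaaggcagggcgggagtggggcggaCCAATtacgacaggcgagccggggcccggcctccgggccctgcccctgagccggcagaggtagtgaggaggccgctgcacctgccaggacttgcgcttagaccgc
Of the 30 members, 24 were matched to this promoter table by symbol. CCAAT stood in a promoter of 21 of these 24 genes (87.5%), against 41.1% of the 27025 genes of the table. The GC box GGGCGG, searched on both strands, stood in 19 of the 24 (79.2%), against 38.2% of all genes. The E-box CACGTG stood in 5 of the 24 (20.8%), against 8.09%, and TCACNCCAC in Hmgcs1 alone (4.17%), against 1.44%. Only exact matches to each motif were counted, so a promoter without a match, or left in lower case above, may still hold a site with other bases. No overlap between motifs was removed. A gene with several promoters was counted once, which gives it more chances of a match, and over single promoters CCAAT stood in 71.0% of the 31 promoters of members and in 37.4% of all 32851.

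Values are array intensities, called signals, and each value below is a signal or a mean log2 signal of 1 probe set, so levels of different genes are not compared. Signals under 6.26, the 95th percentile of the TrpnX negative control probe sets, were set to that floor before log2 was taken. A gene is counted in a cell where its signal is above 50, a level passed by 18% of all values and by 0 of 207 TrpnX values. No label names an animal or litter, so cells are no replicates, a group is a single sample and p-values are not given: SDs are the spread over cells, shares carry exact Clopper-Pearson 95% intervals that cover counting error only, and a gene is called higher or lower where mean log2 signals differ by at least 1. From 3713 to 5715 genes were above 50 per cell, with a median of 3904 over CP cells and 4712 over VZ/SVZ cells. Each of the 7 neuron markers used was above 50 in at least 1 CP cell. Their summed signals were 11090 to 15890 in CP cells, against 15.1 to 20560 with a median of 714 in VZ/SVZ cells. Of the 9 apical progenitor markers, 6 (Sox2, Pax6, Hes1, Hes5, Fabp7 and Prom1) were above 50 in no CP cell. At least 1 apical progenitor marker was above 50 in 2 of 3 CP cells and 62 of 66 VZ/SVZ cells. For intermediate progenitor markers this was 2 of 3 and 66 of 66. Endothelial, microglial and erythroid markers were above 50 in 0 of 69 cells. At least 1 interneuron marker was above 50 in 2 of 66 VZ/SVZ cells, a Cajal-Retzius marker (Reln) in 4, a pericyte or meningeal marker in 4 and an oligodendrocyte lineage marker in 2, and none of these lists in a CP cell.

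Most members were on in many VZ/SVZ cells, and 25 of the 30 were above 50 in at least 20% of them. Scd2, a stearoyl-CoA desaturase, was above 50 in 66 of 66 cells, and Acly, which makes cytosolic acetyl-CoA, in 65. Fdft1, the squalene synthase, was above 50 in 64 cells, Hmgcs1, which makes HMG-CoA, in 63, and Fasn, the fatty acid synthase, in 63. Others were split between cells with a clear signal and cells near the floor: Idi1, which isomerises isopentenyl diphosphate, was above 50 in 46 cells, Cyp51, the lanosterol demethylase, in 39, and Msmo1, which oxidises methyl groups of sterols, in 35. Scd1, another stearoyl-CoA desaturase, was above 50 in 1 of 66 cells (1.52%, 0.0384% to 8.16%).

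**Figure D1:**
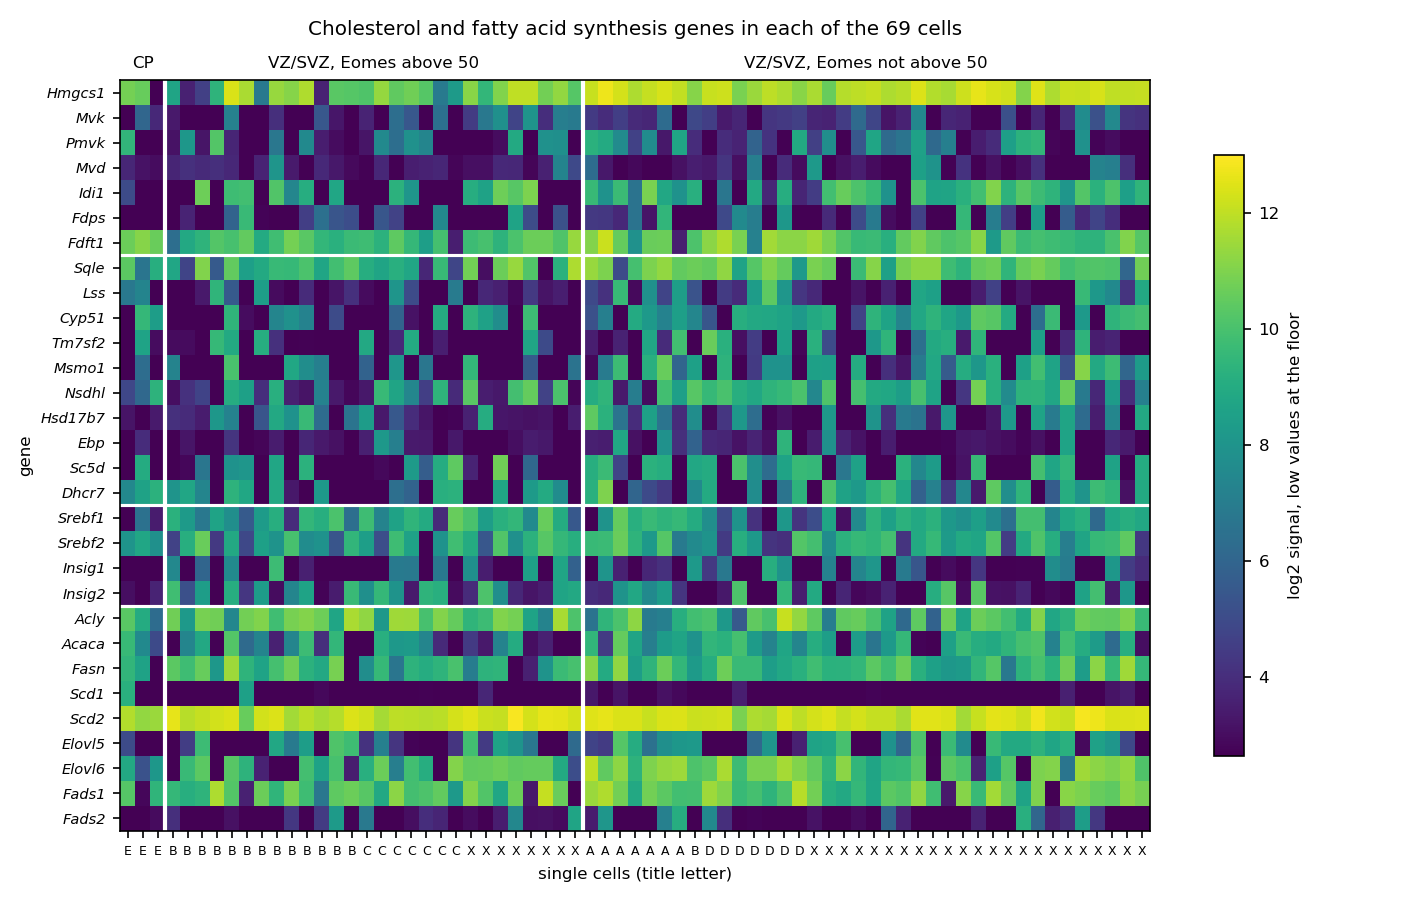
Log2 signal of the 30 members (down the page, in blocks of early sterol, late sterol, regulation and fatty acid genes) in each of the 69 cells (across, with the title letter under each cell), from the floor in dark blue to yellow. White lines separate 3 CP cells, 28 VZ/SVZ cells with Eomes above 50 and 38 without, and dark cells are more frequent in the rows of Idi1, Cyp51, Msmo1 and Nsdhl among cells with Eomes.

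The VZ/SVZ cells were divided by Eomes, a T-box transcription factor that marks intermediate progenitors, which was above 50 in 28 cells and not in 38. Cells with Eomes had lower signals of sterol synthesis genes: 10 of 17 sterol members were lower and 0 higher, with a median difference of -1.12 log2 units. Of the 9 fatty acid genes, 3 were lower and 0 higher (median -0.68), and of the 4 regulators 0 were lower and 1 was higher (median 0.26). In all, 13 of 30 members were lower and 1 was higher. Over all genes, 5.04% were lower and 4.01% higher, with a median of -0.01, and over the 7484 genes above 50 in at least 20% of VZ/SVZ cells, 11% were lower and 9.29% higher, with a median of 0.03. The split itself was wide: the brightest Eomes signal counted as not above 50 was 40.8 and the dimmest above was 245.

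Among the early sterol enzymes, Hmgcs1 signals were 12.1, 1363 and 5421 (lowest, median and highest) in cells with Eomes, against 1568, 4229 and 6911 in cells without. Every cell without Eomes was thus above the median of the cells with it, and the ranges overlapped. Mean log2 signals of Hmgcs1 were 9.72 ± 2.46 in cells with Eomes and 11.93 ± 0.48 in cells without (SD, n = 28 and 38 cells), a difference of -2.22. Idi1 signals were 0.137, 88.3 and 2008 in cells with Eomes, against 1.42, 593 and 2070 in cells without, a difference of -2.23 in mean log2 signal. The highest Idi1 signals were alike, and the difference lay in the share of cells above 50: 14 of 28 with Eomes (50%, 30.6% to 69.3%) and 32 of 38 without (84.2%, 68.8% to 94.0%). The mevalonate kinases Mvk (0.19) and Pmvk (-0.72), the decarboxylase Mvd (-0.13), the farnesyl diphosphate synthase Fdps (-0.30) and Fdft1 (-0.59) differed by less than 1.

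The late enzymes, which turn squalene into cholesterol, held 8 of the 10 lower sterol genes. Cyp51 signals were 0.145, 4.99 and 848 in cells with Eomes, against 0.464, 380 and 1398 in cells without. Cyp51 was above 50 in 10 of 28 cells with Eomes (35.7%, 18.6% to 55.9%) and in 29 of 38 without (76.3%, 59.8% to 88.6%), and its mean log2 signal differed by -2.72, the largest difference among the members. Msmo1 signals were 0.135, 0.866 and 1038 in cells with Eomes, against 0.218, 263 and 2202 in cells without, a difference of -2.25 in mean log2 signal. The median cell with Eomes was thus below the floor for both Cyp51 and Msmo1, while both genes had cells above 50 in either group. Nsdhl, a sterol dehydrogenase that works with Msmo1 to remove methyl groups, had signals of 3.75, 25 and 1519 in cells with Eomes, against 1.93, 478 and 1819 in cells without, a difference of -2.05. Sc5d, a sterol desaturase, differed by -1.53, and Sqle, which epoxidises squalene, by -1.35. Dhcr7, the final reductase of a branch of the pathway, differed by -1.14, Lss, which closes the lanosterol ring, by -1.12, and Tm7sf2, a sterol reductase, by -1.03. The ketosteroid reductase Hsd17b7 (-0.66) and the sterol isomerase Ebp (-0.55) were the late enzymes below 1 in size.

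Of the fatty acid genes, Acaca, the acetyl-CoA carboxylase that makes malonyl-CoA, had signals of 0.902, 48 and 1206 in cells with Eomes, against 0.418, 389 and 1522 in cells without. Acaca was above 50 in 14 of 28 cells with Eomes (50%) and in 33 of 38 without (86.8%), and its mean log2 signal differed by -2.23. The elongase Elovl6, which extends saturated fatty acids, had signals of 0.692, 729 and 2161 in cells with Eomes, against 2.76, 1373 and 4063 in cells without, a difference of -1.88. Both genes had bright cells in either group, with more cells near the floor among those with Eomes. Elovl5, an elongase of polyunsaturated fatty acids, differed by -1.15. Acly (0.76), Fasn (-0.88), Scd1 (0.12), Scd2 (-0.14) and the desaturases Fads1 (-0.68) and Fads2 (-0.19) differed by less than 1.

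Of the regulators, Srebf1 (0.51), Srebf2 (-0.41) and Insig1 (0.02) differed by less than 1. Srebf1 and Srebf2 encode SREBP1 and SREBP2, and the Insig genes their retention proteins. Insig2 signals were 5.82, 223 and 1111 in cells with Eomes, against 2.23, 11.8 and 1306 in cells without, a difference of 1.39. Insig2 was above 50 in 16 of 28 cells with Eomes (57.1%, 37.2% to 75.5%) and in 13 of 38 without (34.2%, 19.6% to 51.3%).

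**Figure D2:**
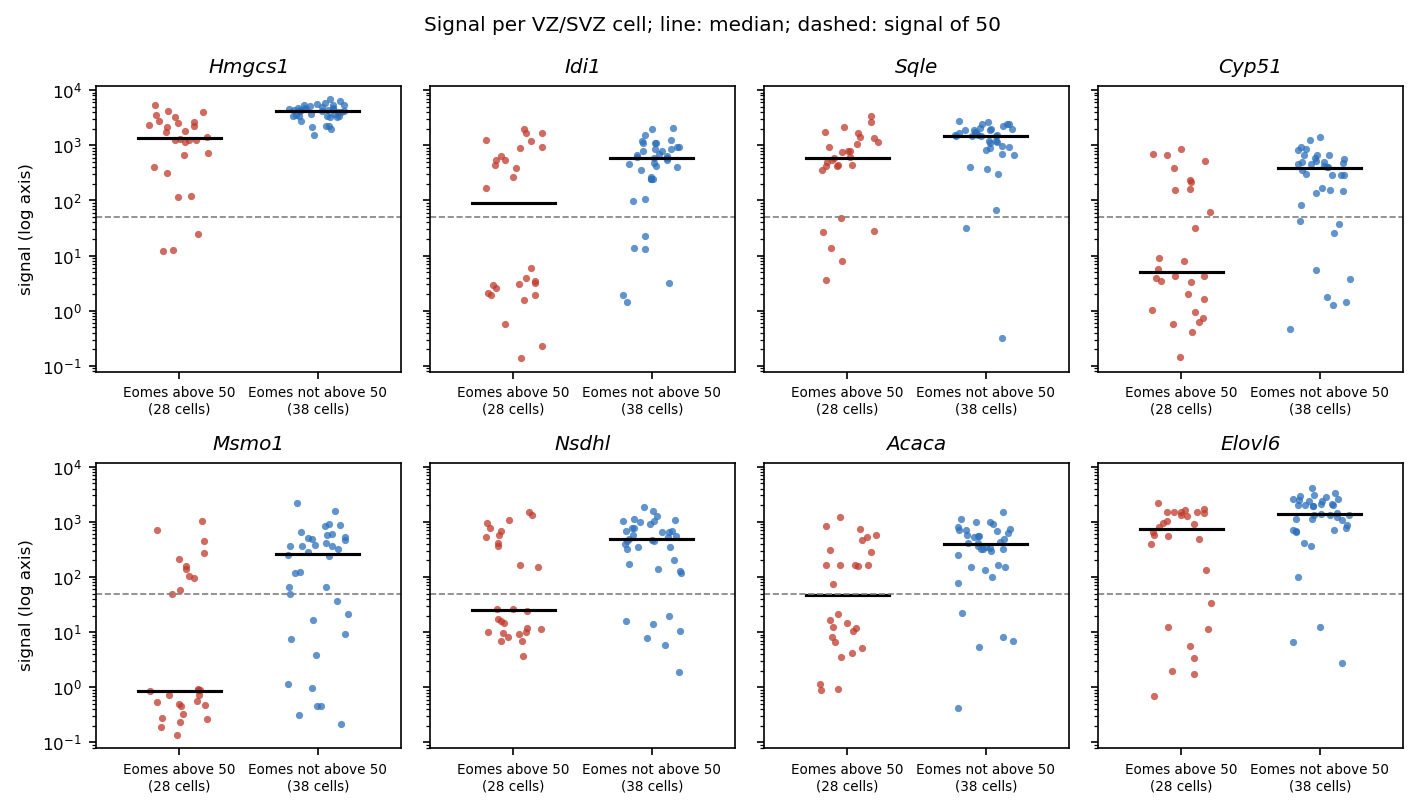
Signal (log axis) of 8 members in each VZ/SVZ cell, with the 28 cells with Eomes above 50 on the left (red) and the 38 others on the right (blue). Black lines are medians and the dashed line is a signal of 50, and the median of Msmo1 is 0.866 in cells with Eomes and 263 in the others.

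Per cell, 3 to 13 of the 17 sterol genes were above 50 in cells with Eomes, with a median of 6.5, against 5 to 15 with a median of 9 in cells without. At least 9 sterol genes were above 50 in 7 of 28 cells with Eomes and in 25 of 38 without. The number of all genes above 50 was closer, with medians of 4644.5 in cells with Eomes and 4810.5 in the others. Median log2 signals of the spikes were 12.95 and 9.87 for lys and phe in cells with Eomes, and 12.98 and 10.08 in cells without. Other probe sets gave the same direction where they were bright: 9 of the 13 lower members have 16 further probe sets, and of the 10 of these above 50 in at least 20% of VZ/SVZ cells, 10 were below 0 and 9 were lower by at least 1. Of all 16, 14 were below 0 and 9 lower by at least 1. Among the dimmer ones, Sc5d was at -0.22 (above 50 in 12 VZ/SVZ cells) and Acaca at 0.41 (1 cell). Probe sets differed in call for Srebf2, where another gave -1.21, Mvd (-1.20) and Fdft1 (-1.09), while for Insig2 another gave 1.06 and the remaining one the opposite sign, at -0.26.

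Title letters moved with Eomes, which was above 50 in 0 of 7 A cells, 13 of 14 B cells, 7 of 7 C cells, 0 of 7 D cells and 8 of 31 X cells. Outside X, letter and Eomes cannot be told apart. Within X, a comparison chosen after seeing the data, 9 of 17 sterol genes were lower in the 8 cells with Eomes than in the 23 without, and 1 was higher, with a median difference of -1.11. There 9.90% of all genes and 21.6% of genes above 50 in at least 20% of VZ/SVZ cells were lower. Msmo1 was above 50 in 2 of 8 X cells with Eomes and in 16 of 23 without, a difference of -2.83 in mean log2 signal, Cyp51 differed by -1.94 and Idi1 by -1.80. Hmgcs1 (-0.96, against -2.22 over all cells) and Nsdhl (-0.83, against -2.05) differed by less than 1 within X. Of the 13 members lower over all cells, 12 were below 0 within X and 9 were lower by at least 1. The X cells are among the cells by which these 13 were picked, so this count is no independent check. Of the 9 fatty acid genes within X, 3 were lower and 0 higher, with a median of 0.04. Over the 7 of them above 50 in at least 20% of VZ/SVZ cells the median was -0.87. Acaca was at -3.20, Fasn at -2.07 and Elovl6 at 0.52, opposite in sign to its value over all cells. The sterol gene higher within X was Mvk, at 1.90.

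Other markers moved with the split as well. The 9 apical progenitor markers had summed signals of 2801 to 21210 in cells with Eomes, with a median of 7775, against 43.1 to 25580 with a median of 16630 in cells without. The neuron markers had medians of 3075 in cells with Eomes and 393 in cells without, and 5 dividing cell markers had medians of 13460 in cells with Eomes and 10570 in cells without. Within X the apical markers had medians of 17920 in cells with Eomes and 16930 in cells without, and the neuron markers 603 in cells with Eomes and 241 in cells without. Medians within X were 4628.5 genes above 50 and a trimmed mean of 114 in cells with Eomes, against 4956 and 96.2 in cells without. The 2 VZ/SVZ cells with an interneuron marker and the 4 with Reln above 50 were all among the 28 with Eomes. The part of these measures in the sterol difference was not tested. Among the 49 cells with Sox2 above 50, the 21 with Eomes had 10 sterol genes lower and 0 higher than the 28 without, with a median of -1.31, where 6.90% of all genes and 15.1% of genes above 50 in at least 20% of VZ/SVZ cells were lower. Among cells with Tubb3 above 50 the sterol median was -0.97 (17 with Eomes and 18 without), and among cells without Tubb3 it was -0.81 (11 and 20 cells). The part of cell cycle stage in these differences was not tested.

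**Figure D3:**
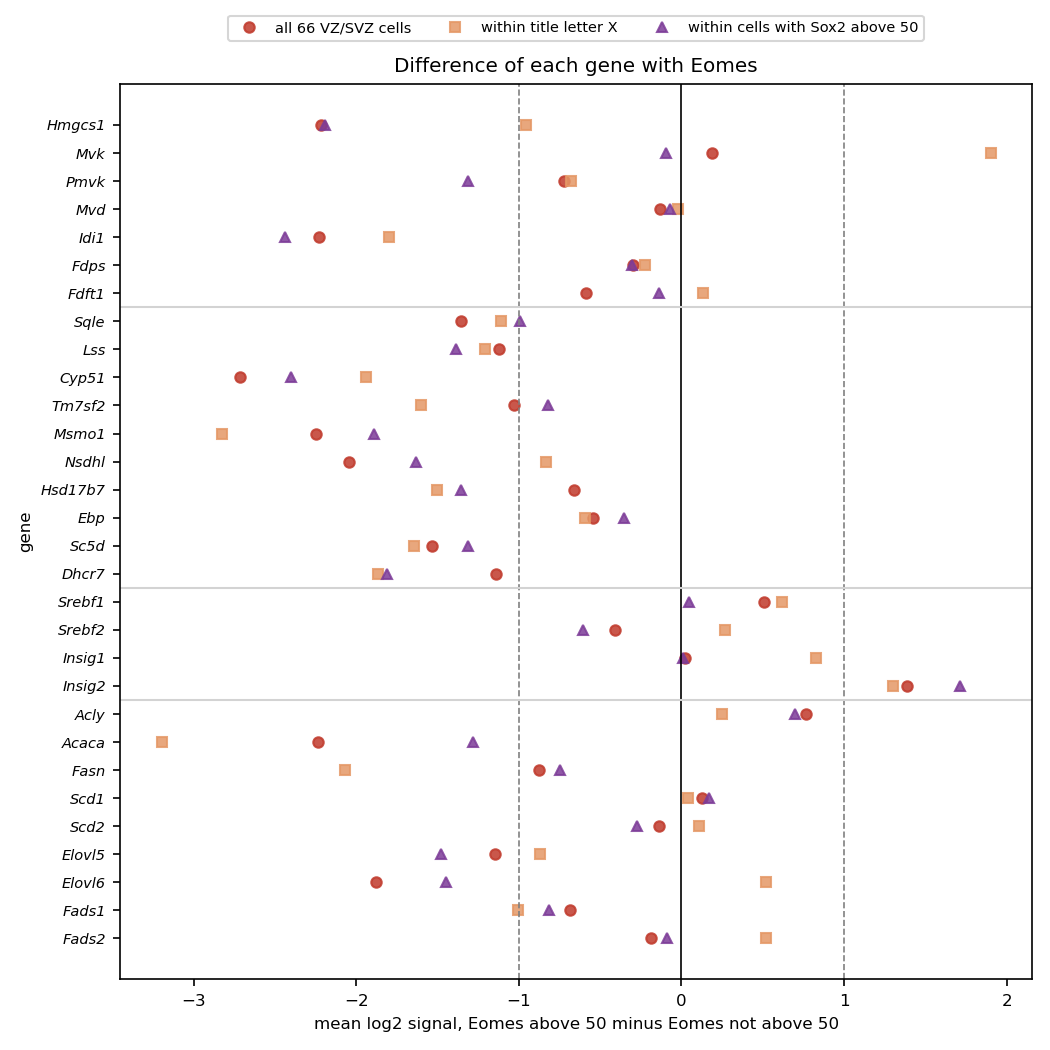
Difference in mean log2 signal, cells with Eomes above 50 minus cells without, for each of the 30 members, over all 66 VZ/SVZ cells (circles), within title letter X (squares) and within cells with Sox2 above 50 (triangles). Dashed lines mark differences of 1 in size, and Cyp51, Msmo1, Idi1 and Dhcr7 lie left of -1 in all 3 sets of cells, while Elovl6 lies at 0.52 within X.

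The 10 VZ/SVZ cells with Tubb3, the neuronal tubulin, and with neither Sox2 nor Eomes above 50 were set against the 28 cells with Eomes, in a comparison added after seeing the data. In the Tubb3 cells 9 sterol genes were higher and 1 was lower, with a median of 1.23, while 8.81% of all genes and 16.3% of genes above 50 in at least 20% of VZ/SVZ cells were higher. Cyp51 differed by 3.34, Nsdhl by 2.91, Sc5d by 2.68 and Hmgcs1 by 2.07, and Acaca, at 3.04, was above 50 in 10 of 10 Tubb3 cells and in 14 of 28 cells with Eomes. The regulator Srebf1 was lower, at -2.01, and was above 50 in 5 of 10 Tubb3 cells and in 24 of 28 cells with Eomes. Over all genes 2427 of 18194 were lower in the Tubb3 cells, and 2321 of the 7484 genes above 50 in at least 20% of VZ/SVZ cells. The 28 cells with Eomes, set against the 20 cells with Sox2 and neither Eomes nor Tubb3, had 11 sterol genes lower and 0 higher, with a median of -1.42, where 7.81% of all genes and 17.1% of genes above 50 in at least 20% of VZ/SVZ cells were lower.

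Between the Tubb3 cells and the Sox2 cells the median sterol difference was -0.08, with 3 sterol genes higher and 5 lower in the Tubb3 cells, while 9.58% of all genes were higher and 16.5% lower. Among genes above 50 in at least 20% of VZ/SVZ cells, 18% were higher and 36.4% lower, so the sterol counts lay near that background. Idi1 differed by -2.98, Hsd17b7 by -2.62, Dhcr7 by -2.60 and Pmvk by -2.0, whereas Tm7sf2 differed by 1.55, Sc5d by 1.39 and Nsdhl by 1.10. Sterol genes above 50 per cell had medians of 8 in the 10 Tubb3 cells, 6.5 in the 28 cells with Eomes and 10.5 in the 20 Sox2 cells. The Tubb3 cells had fewer genes above 50 of all kinds, with a median of 4161, against 4644.5 in cells with Eomes and 4950 in the Sox2 cells.

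**Figure D4:**
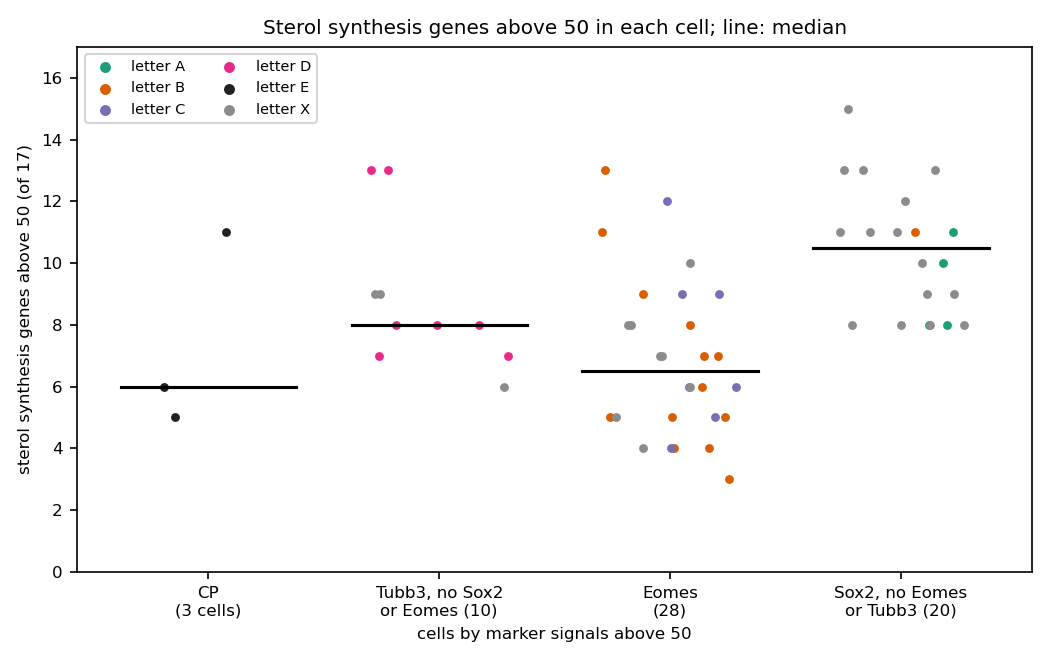
Number of the 17 sterol synthesis genes above 50 in each cell (vertical axis) by the markers above 50 in that cell, with points coloured by title letter and black lines at the medians. Medians are 6 in CP cells, 8 in Tubb3 cells without Sox2 or Eomes, 6.5 in cells with Eomes and 10.5 in cells with Sox2 alone, and 8 VZ/SVZ cells with both Sox2 and Tubb3 but no Eomes are not drawn.

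Divided by Tubb3 alone, the 35 cells above 50 had 5 of 17 sterol genes lower and 0 higher than the 31 others, with a median of -0.65. In all 7 members were lower and 1 was higher, while 7.08% of all genes were lower and 5.17% higher, and 16.4% of genes above 50 in at least 20% of VZ/SVZ cells were lower. Idi1 averaged 6.20 in cells with Tubb3 and 8.66 in cells without, a difference of -2.46, and was above 50 in 19 of 35 cells with Tubb3 and in 27 of 31 without. Dhcr7 was above 50 in 16 of 35 cells with Tubb3 and in 25 of 31 without, a difference of -2.08. Srebf1 (-1.20), Msmo1 (-1.15), Pmvk (-1.14), Elovl6 (-1.08) and Sc5d (-1.06) were also lower. Insig2, at 1.53, was again the regulator that was higher, above 50 in 20 of 35 cells with Tubb3 and in 9 of 31 without. Divided by Sox2, a factor of apical progenitors, the 49 cells above 50 had 6 members higher and 2 lower than the 17 others, where 12.3% of all genes were higher and 6.76% lower, and 28.5% of genes above 50 in at least 20% of VZ/SVZ cells were higher. Idi1, at 2.75, and Elovl5, at 2.32, had the largest differences with Sox2, while Sc5d (-1.25) and Tm7sf2 (-1.03) were lower. These splits share cells with the Eomes split, since 21 of the 28 cells with Eomes also had Sox2 and 17 had Tubb3.

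By title letter, A cells had 10 sterol genes higher and 0 lower than B cells, with a median of 1.53, while 12.1% of all genes and 24% of genes above 50 in at least 20% of VZ/SVZ cells were higher. Elovl6, at 4.12, and Hmgcs1, at 3.15, differed most between A and B, and both were above 50 in 7 of 7 A cells, against 8 and 11 of 14 B cells. C and B cells nearly all had Eomes. In C cells 2 sterol genes were higher and 3 lower than in B cells (median -0.21), and over all members 4 were higher and 4 lower. Over all genes 8.37% were higher and 8.39% lower. Of the 7484 genes above 50 in at least 20% of VZ/SVZ cells, 1295 were higher and 1380 lower, so the members' counts were not above that background. Idi1 (-2.12), Elovl5 (-1.91), Hsd17b7 (-1.79) and Sqle (-1.37) were lower in C than in B, and Elovl6 (1.65), Nsdhl (1.27), Ebp (1.24) and Insig2 (1.08) were higher. D cells, all with Tubb3 and none with Sox2, had 9 sterol genes higher and 0 lower than C cells, with a median of 1.05, while 9.40% of all genes and 17.3% of genes above 50 in at least 20% of VZ/SVZ cells were higher. Srebf1 and Insig2 differed the other way, by -2.68 and -2.27, so in D cells the enzymes and these regulators did not move together. Over the letters, Hmgcs1 averaged 12.21 in A, 9.06 in B, 9.75 in C, 11.65 in D and 11.73 in X, and Nsdhl averaged 9.52 in D, above its 5.41 in B and 6.69 in C.

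The 3 CP cells had 15 of 30 members lower and 2 higher than the 66 VZ/SVZ cells, with a median difference of -0.86. Over all genes 20.4% were lower and 10.6% higher, but over genes above 50 in at least 20% of VZ/SVZ cells, a filter that 25 members pass, 47.2% were lower and 16% higher, with a median of -0.85, so the members' share lay near that of genes with a clear VZ/SVZ signal. Of the sterol genes 6 were lower and 1 higher (median -0.54), of the fatty acid genes 6 were lower and 1 higher (median -1.18), and of the regulators 3 were lower (median -2.28). CP cells also had lower trimmed mean signals, 50.1 to 76.1, against 59.2 to 142 in VZ/SVZ cells. Calls for CP depended on the probe set for some members. Another probe set gave 1.88 for Srebf2 (used 0.02), 1.83 for Fdft1 (0.93) and 1.18 for Mvk (-0.14). It gave -1.25 for Cyp51 (0.55) and -0.42 for Scd1 (2.0). Lower calls were not kept by other probe sets of Hsd17b7 (-0.35, used -2.23) and Elovl6 (-0.91 and 0.36, used -1.62), among others. Lss changed sign with another probe set (-0.69, used 0.96). For other members, such as Idi1 (-3.27) and Elovl5 (-3.28), another probe set kept the call.

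Idi1 signals in the 3 CP cells were 32.4, 2.03 and 2.85, none above 50, against 46 of 66 VZ/SVZ cells above 50, which puts it at least 3.28-fold lower in CP. Srebf1 signals were 3.13, 90.7 and 10.7 in CP cells, and its mean log2 signal was 4.19 in CP cells and 7.96 in VZ/SVZ cells. Elovl5 was at least 1.34-fold lower and Insig2 at least 1.06-fold lower in CP cells, with no CP cell above 50 for either. Several other CP values rested on a single cell. Hmgcs1 signals were 1818, 1552 and 2.07 in CP cells, Fasn signals were 700, 389 and 3.20, and Fads1 signals were 1231, 7.13 and 693. Scd1 signals were 589, 3.26 and 6.17 in CP cells, and its difference of 2.0 became -0.19 without the first of them.

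Some members kept a clear signal in every CP cell. Dhcr7 signals were 177, 389 and 639 in CP cells, with a mean log2 signal of 8.46 ± 0.94 in CP cells and 6.34 ± 2.87 in VZ/SVZ cells (SD, n = 3 and 66 cells), a difference of 2.13. Fdft1 signals were 1620, 2195 and 1582, Scd2 signals were 3605, 2550 and 2757, and Srebf2 signals were 256, 441 and 228. Dhcr7 was above 50 in 41 of 66 VZ/SVZ cells, and its CP values lay inside the VZ/SVZ range. Against the 7 D cells, CP cells had 10 sterol genes lower and 1 higher, with a median of -1.14, while 14.2% of all genes and 30.7% of genes above 50 in at least 20% of VZ/SVZ cells were lower. Dhcr7 was the sterol gene that was higher, at 2.67.

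**Figure D5:**
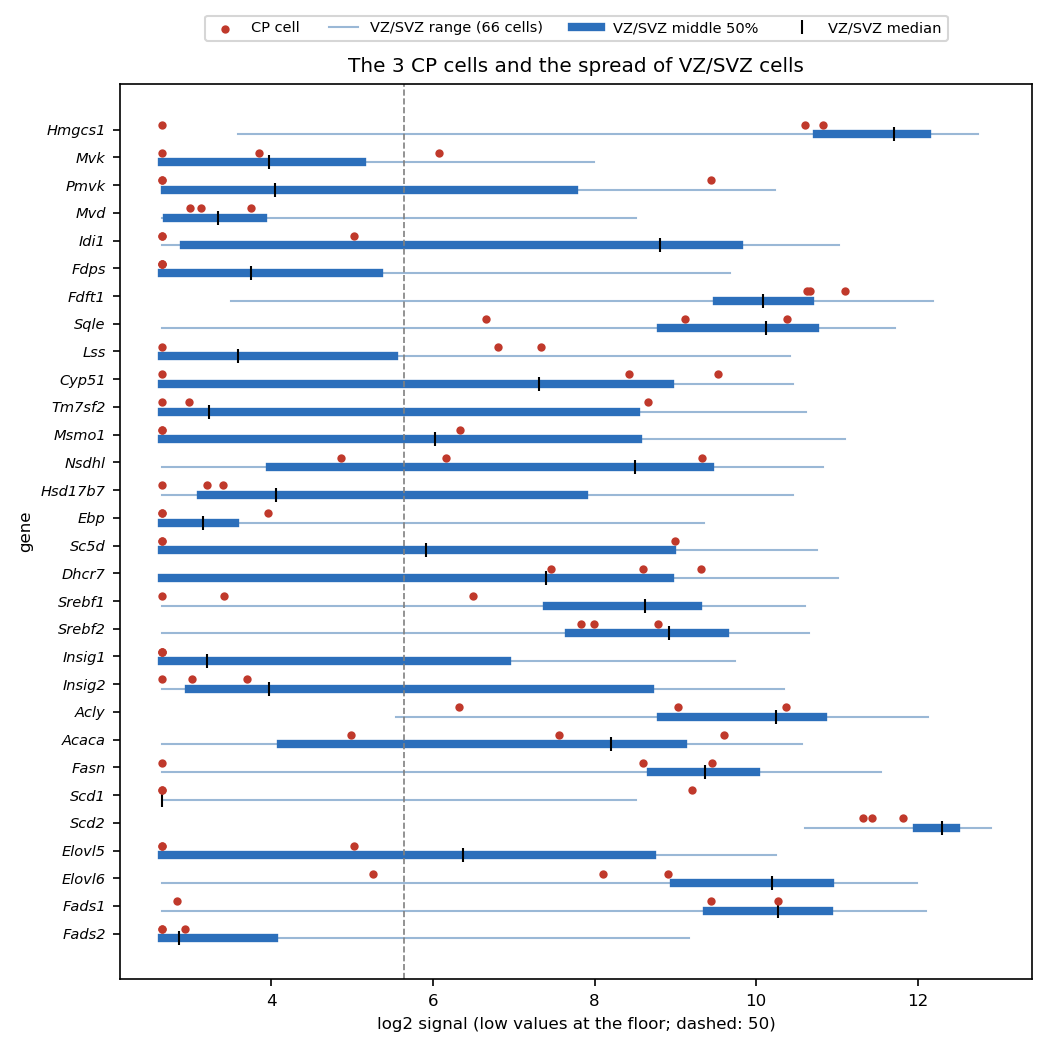
Log2 signal of each member in the 3 CP cells (red points) above the spread of the 66 VZ/SVZ cells (thin line, lowest to highest; thick line, middle 50%; tick, median), with a dashed line at a signal of 50. The CP cells of Srebf1 lie below the middle 50% of VZ/SVZ cells, those of Dhcr7, Fdft1 and Srebf2 all lie right of the dashed line, and those of Hmgcs1 lie on both sides of it.

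Across the 66 VZ/SVZ cells the sterol genes were only weakly correlated with each other. Over the 12 sterol genes above 50 in 20% to 95% of cells, the median Pearson r of log2 signals over 66 pairs was 0.135, with 16.7% of pairs at 0.3 or more, against a median of 0.0208 and 2.45% over all pairs of the 6759 such genes. The pairs share cells, amplification and array, and these values are a description. The highest r among members were 0.480 for Sqle and Nsdhl, 0.450 for Nsdhl and Insig1, 0.412 for Idi1 and Elovl5 and 0.411 for Idi1 and Cyp51. Dhcr7 and Insig2 had the lowest, at -0.380. Among the 38 cells without Eomes, the sterol median was 0.0646 with 7.58% of pairs at 0.3 or more, against 0.024 and 6.84% over all genes. Among the 28 cells with Eomes it was 0.0585 with 19.7% of pairs at 0.3 or more, against 0.0187 and 7.89% over all genes.

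Other genes of lipid metabolism were counted from a list of 55, of which 47 had a single-gene probe set. With Eomes, 6 were lower and 2 higher, with a median of -0.16, beside 5.04% lower and 4.01% higher over all genes and 11% lower and 9.29% higher over genes above 50 in at least 20% of VZ/SVZ cells. Cpt1a, which admits fatty acids to mitochondria, differed by -1.95, the acyl-CoA synthetases Acsl3 and Acsl5 by -1.56 and -1.35, Stard4, a sterol transfer protein, by -1.45, Acadm, an acyl-CoA dehydrogenase, by -1.24, and Hacd1, a dehydratase of fatty acid elongation, by -1.03. Mbtps1, the protease that cleaves SREBP (1.17), and the sterol exporter Abcg1 (1.07) were higher. These genes were named for Eomes after their values were seen.

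With Tubb3, 11 of the 47 were lower and 1 higher (median -0.22), beside 7.08% of all genes and 16.4% of genes above 50 in at least 20% of VZ/SVZ cells lower. The lower genes were Fabp7, the radial glial fatty acid binding protein (-2.98), Stard4 (-2.38), Lbr, a sterol reductase of the nuclear envelope (-2.17), Acadl (-2.02), Hsd17b12 (-1.87), Aacs (-1.56), Acadm (-1.46), Elovl1 (-1.22), Cpt1a (-1.13), Abca1 (-1.11) and Acsl5 (-1.11). The citrate carrier Slc25a1 was higher, at 1.58.

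In CP cells 19 of the 47 were lower and 6 higher than in VZ/SVZ cells (median -0.75), a count between the 20.4% of all genes and the 47.2% of genes above 50 in at least 20% of VZ/SVZ cells that were lower. Fabp7 was at least 39.2-fold lower in CP cells, Acsl3 at least 2.15-fold and Stard4 at least 1.52-fold. Lbr (-3.77), Hadhb (-3.31), Mbtps1 (-2.68), Acadm (-1.53), Gpam (-1.45) and Scap (-1.16) were lower with 1 CP cell above 50 each. Acadl, Hsd17b12, Abca1, Slc25a1, Aacs, Cpt1a, Acsl4, Hadha, Cpt2 and Acsl5 were above 50 in no CP cell, and no fold is given for them. Acsl6, an acyl-CoA synthetase, was above 50 in 3 of 3 CP cells and 13 of 66 VZ/SVZ cells, a difference of 4.11, and Cpt1c, the brain form of Cpt1, in 3 of 3 CP cells and 38 of 66 VZ/SVZ cells, a difference of 2.81. Hacd1 (3.26), Elovl2 (1.82), Me1 (1.36) and Acss2 (1.14) were also higher in CP cells.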

How the data were processed

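Each of the 69 samples is 1 cell on an Affymetrix array. The authors deposited an intensity per probe set, not log-transformed, from MAS5, per the submitters' processing notes; its version and scaling are not given in the sources used here. Of 45101 probe sets, 34958 had 1 gene in the platform annotation, 932 several and 9211 none, and only the first kind was used. For 34754 of these the Entrez identifier matched RefSeq (GRCm38.p6), which changed 0 symbols. Of the members, 9 had 1 probe set and 21 several. Groups came from the source labels, from title letters and from Sox2, Eomes or Tubb3 signals above 50. The value of each comparison is the difference in mean log2 signal, and with 1 sample a group no significance test was run. The difference in mean log2 signal was checked separately on resampled cell values in which some genes had been raised. The groups, counts and calls used here were not part of that check. The members and lists were chosen with earlier results of these data known. All 30 members are named with their Eomes difference, and signals per group are given for only some of those that differ by at least 1. Other lipid genes are named where they differ by as much with CP or Tubb3. Alternatives were a floor at 50, no floor, trimmed mean scaling, quantile normalization, the mean of all probe sets, a marker signal of 100, leaving out cells, and subsets of cells chosen after seeing the data. Computations used Python 3.11.15, numpy 2.4.6, pandas 2.3.3, scipy 1.17.1 and matplotlib 3.10.9.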

Additional observations from a re-analysis of the deposited data

Results flagged for a closer look

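In each letter with 4 to 10 cells (A, C and D), the highest and lowest log2 signal of every member was set against the nearest other cell, with the gap taken as a share of the range (Dixon's 95% critical value). Of the 90 groups looked at, 14 held such a cell. For normally distributed values the rule flags about 1 in 20 groups by chance. Low values here were set to the floor, so that rate does not apply to these groups and 14 is not read as an excess.

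Cells above the others by this rule were found for Mvd, at 6.32 in A (nearest 3.32) and 7.07 in D (nearest 4.25), for Ebp at 9.36 in D (nearest 3.86) and for Insig1 at 8.0 in A (nearest 4.10). Fatty acid genes with such a high cell were Elovl5 at 7.18 in C (nearest 4.23), Fads2 at 6.85 in C and 7.57 in D (nearest 4.0 and 4.04), and Scd1 at 2.69 in C and 3.53 in D (nearest 2.65 and 2.67). Both Scd1 cells lay under a signal of 50. In C all other Scd1 values were at the floor of 2.65, so any value above it was flagged, however small the gap.

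Cells below the others by this rule were found for Fdft1, at 3.50 in C (nearest 8.47) and 7.21 in D (nearest 10.92), for Sqle at 5.00 in A (nearest 9.94), for Srebf1 at the floor of 2.65 in A (nearest 7.98) and for Scd2 at 12.12 in A, a small gap (nearest 12.42).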

How the results depend on the processing

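No paired analysis was possible because the results come from no test and replicate numbers only name cells. The cause of each change below was not tested. The 13 members lower with Eomes were all below 0 under a floor at 50, no floor, trimmed mean scaling, quantile normalization, the mean of all probe sets and a marker signal of 100, and 8, 13, 13, 12, 10 and 13 of them were lower by at least 1. These 13 were picked from the same cells, so their staying below 0 is no separate evidence. With Eomes, members lower were 8 and higher 0 under a floor at 50, higher 0 with the mean of all probe sets, and higher 2 within X, 2 within Tubb3 cells and 0 within cells without Tubb3. The fatty acid median became 0.038 within X over all 9 genes, and was -0.87 over the 7 above 50 in at least 20% of VZ/SVZ cells. Elovl6 turned to 0.52 within X and 0.0032 within cells without Tubb3, where Sc5d turned to 0.46. With Tubb3, members lower were 2 and higher 0 under a floor at 50, lower 11 with no floor and 4 for averaged probe sets. With Sox2, higher were 2 and lower 0 under a floor at 50, while the lower were 4 with no floor and 1 for averaged probe sets. In CP, higher were 6 under trimmed mean scaling, 6 under quantile normalization and 1 for averaged probe sets, which left 9 lower. Leaving out 1 CP cell at a time gave sterol medians of -1.04 to -0.28, fatty acid medians of -2.08 to -0.58, 12 to 16 members lower and 2 to 5 higher against VZ/SVZ cells, and sterol medians of -1.53 to -0.91 against D cells. Leaving out 1 cell gave sterol medians of 1.08 to 1.79 for A against B, -0.45 to 0.04 for C against B and 0.63 to 1.46 for D against C. Single genes turned without 1 CP cell. Against VZ/SVZ cells, Sc5d ranged from -3.15 to 0.024 (above 0 without cell 1 or cell 3), Scd1 from -0.19 (without cell 1) to 3.09 and Fads1 from -3.57 to 0.14 (without cell 2). Against D cells, Scd1 ranged from -0.13 (without cell 1) to 3.15 and Acly from -1.99 to 0.032 (without cell 3). Signals near the floor of 6.26 carry no order, and the number of arrays limits precision.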
